A study of Caenorhabditis elegans with 2 samples.

Results

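The genes described here are 38 genes of the body wall muscle and the pharynx of Caenorhabditis elegans, out of 19973 nuclear protein-coding genes, examined for binding of the zinc finger protein SCRT-1. They are a fixed set of symbols, all 38 of which were found in the Ensembl annotation: 19 genes for regulators of mesoderm, muscle or pharynx fate, 18 genes for contractile and sarcomere proteins, and pha-1, which is neither. Of these, 22 were assigned to body wall and other non-pharyngeal muscle and 16 to the pharynx. Each gene was placed on a single side by hand, which does not show that it is used in that tissue alone. Binding was mapped by chromatin immunoprecipitation with an anti-GFP antibody and sequencing (ChIP-seq) in whole early embryos, 2 h old and collected by egg bleaching, in 2 biological replicates. Both replicates come from strain OP802, in which the transgene wgIs802 carries scrt-1 fused to TY1, EGFP and 3xFLAG together with a functional unc-119 gene, in an unc-119 (tm4063) mutant background. There is no second condition and no untagged strain among the samples, and the control library named in the labels was not analysed here. Tissues cannot be separated in whole embryos, so a peak at a muscle gene does not show that the protein was bound there in muscle cells.

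Body wall muscle arises in the worm embryo from the MS, C and D lineages and, for a single cell, from AB. PAL-1, a Caudal homeodomain protein, starts the C and D programmes, and HLH-1 (the MyoD homologue), UNC-120 (an SRF-like factor) and HND-1 (a Hand factor) then act together to set muscle fate. The pharynx is built from AB and MS descendants under PHA-4, a FoxA factor, with T-box proteins such as TBX-37 and TBX-38 acting in the AB part and CEH-22, an NK-2 homeodomain protein, activating pharyngeal muscle genes such as myo-2. The contractile genes are switched on later, when muscle cells differentiate. Snail and Scratch proteins bind the E-box CAGGTG, while HLH-1 and HLH-8 bind forms of the general E-box CANNTG, of which CAGGTG is one.

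The sequences at the peaks that carried a reproducible call are shown first, except the one at unc-15, which is described below by its words only. Each is the 101 bases centred on the summit, in WBcel235 (ce11) coordinates, 5′ to 3′ on the strand of the gene, read from the RefSeq genome sequence. Capitals mark any E-box (CANNTG), the GC box GGGCGG, the GAGA repeat GAGAGA and the telomere repeat unit TTAGGC, each on either strand. The telomere unit was added after the sequences were seen.

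tbx-38, chrIII:11786336-11786436, minus strand: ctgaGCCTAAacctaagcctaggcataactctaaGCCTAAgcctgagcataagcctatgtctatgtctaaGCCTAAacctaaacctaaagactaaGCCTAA
tbx-2, chrIII:5136306-5136406, minus strand: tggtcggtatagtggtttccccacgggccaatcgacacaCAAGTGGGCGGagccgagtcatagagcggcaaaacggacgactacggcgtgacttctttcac
unc-27, chrX:8789181-8789281, plus strand: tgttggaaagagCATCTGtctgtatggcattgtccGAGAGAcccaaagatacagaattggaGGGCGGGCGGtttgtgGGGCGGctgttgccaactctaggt
peb-1, chrX:2216794-2216894, plus strand: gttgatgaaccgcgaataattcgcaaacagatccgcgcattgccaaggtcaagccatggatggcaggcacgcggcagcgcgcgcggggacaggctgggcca

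The tbx-38 sequence is a degenerate array of the telomere repeat unit, with 4 exact copies in these 101 bases and 8 in the whole peak. The tbx-2 sequence holds the E-box CAAGTG, which overlaps a GC box by its last base. The unc-27 sequence holds the E-box CATCTG, 1 GAGA repeat and 3 GC boxes, the first pair overlapping. The peb-1 sequence holds none of the marked words and has a GC content of 62.4%. None of the 4, nor the sequence at the remaining site, at unc-15, holds CAGGTG.

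Peaks were read from the authors' deposited lists. A site is a peak of the conservative list, which holds 1211 peaks that agree between the 2 replicates at a global irreproducible discovery rate (IDR, a measure of how far peaks of that rank fail to recur between replicates) of up to 0.00999. A candidate is any of the 101059 peaks of the ranked list from which the sites were drawn, and it carries the authors' signal value for the peak itself, called the joint signal here, and for the matching peak in each of the 2 replicates. The labels do not say which biological replicate is listed first, so these are given below in the order of the list. The scale of the signal is not stated, it was used only to rank and describe peaks, and no read depth is known. A gene's promoter window reached from 1000 bp upstream to 200 bp downstream of any of its annotated starts, and a peak was assigned by its summit.

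Of the 38 genes, 5 had a site in the promoter window (13.2%), where 2.99% of all protein-coding genes did. They were tbx-2, peb-1 and tbx-38 among the regulators, and unc-27 and unc-15 among the contractile genes. Their joint signals ran from 79.4 to 111, at ranks from 449 to 912 among the 1211 sites. tbx-2 and peb-1 stood above the median site (94.6) and the other 3 below it. Each site lay in the promoter window of 1 protein-coding gene, so none of the 5 was shared with a neighbour. Genes with several annotated starts have longer windows. Of the 14498 genes whose window was 1201 bp, 2.34% had a site, as did 4.10% of genes with windows up to 2402 bp and 6.62% of those with longer windows, and the members with a site numbered 3 of 23, 1 of 6 and 1 of 9 in these classes. No test was applied to the share, since the genes were chosen with results of these libraries known.

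**Figure D1:**
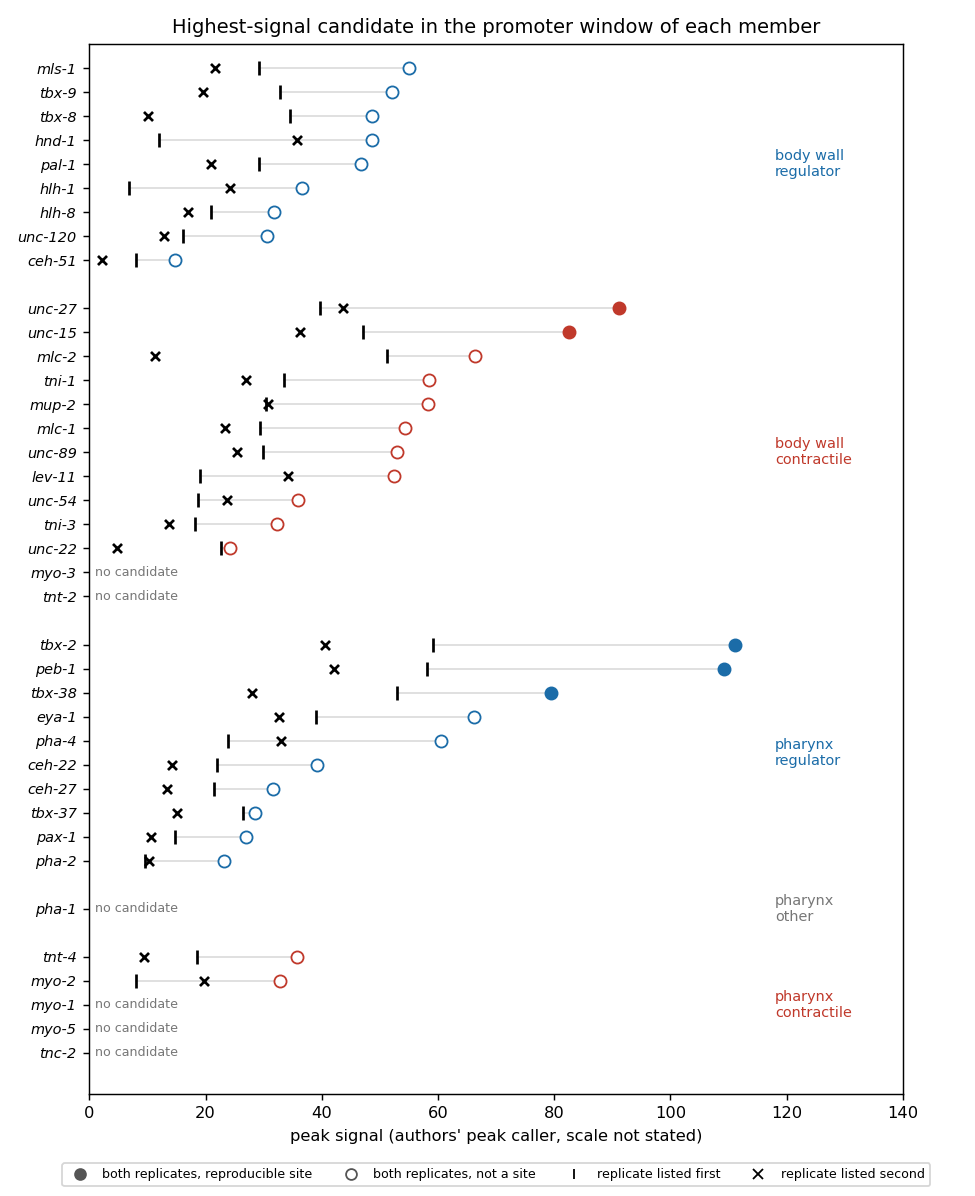
Signal of the highest candidate in the promoter window of each of the 38 genes, on the authors' scale; circles give the joint signal (filled for the 5 sites), vertical bars the replicate listed first and crosses the one listed second, in blocks by tissue and role. The 5 sites run from 79.4 to 111, the highest member without a site reaches 66.4, and 6 genes have no candidate.

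Among the regulators, tbx-2 had the strongest site. TBX-2 is a T-box factor needed for pharyngeal muscle from the ABa lineage. Its site (chrIII:5136198-5136513) had a joint signal of 111, with 59.1 and 40.6 in the replicates listed first and second, and an IDR of 0.00166. The summit lay 60 bp upstream of the start, between genes. The nearest annotated non-coding start, of the piRNA gene 21ur-15343, was 8617 bp away. This was the highest of the 38 genes and ranked 531 among all candidates.

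peb-1 encodes a DNA-binding protein of the pharynx that binds an enhancer of the pharyngeal myosin gene myo-2. Its site (chrX:2216686-2217001) had a joint signal of 109, with replicate values of 58.2 and 42.1, and an IDR of 0.00156. It lay inside the gene, 330 bp upstream of the last of its 3 annotated starts and 5793 bp downstream of the first, outside the exons of peb-1. The same summit lay in an exon of T14F9.14, a non-coding RNA gene on the opposite strand, 57 bp from its start, and signal at either gene cannot be told apart here. peb-1 was the one member with a peak in the thresholded list of a single replicate, that of replicate 2.

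tbx-38 encodes a T-box factor that acts with its close paralogue TBX-37 in the AB-derived part of the pharynx. Its site (chrIII:11786228-11786543) had a joint signal of 79.4, with replicate values of 53.0 and 27.9, and its IDR of 0.00991 was just inside the threshold. The summit lay 325 bp upstream of the start. At tbx-37 the highest candidate reached 28.4, with replicate values of 26.4 and 15.1, at an IDR of 0.287, and its summit lay 6 bp downstream of the start.

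At equal distances from the start, the sequences upstream of the 2 paralogues differ where the site lies. From the start to 200 bp downstream, 86.1% of bases were identical in a global alignment, against 51.7% of the 201 bases from 425 to 225 bp upstream. The same offsets were aligned in both genes, so a like stretch at another distance from the tbx-37 start would be missed. Over the whole window 62.8% were identical, where the unrelated pair tbx-2 and peb-1 gave 52.7%. The tbx-38 window held 14 copies of the telomere unit and the tbx-37 window 1. Of all promoter windows 2.10% held at least 3 copies, and within 50 bp of the summit 8 of the 1211 sites did (0.661%), against 0.415% of the 58345 candidates with an IDR above 0.5. Of the 287 overlapping 30-mers of the tbx-38 peak, 1 occurred elsewhere in the genome, and none of those in the other 4 peaks did. Whether imperfect copies of the repeat attract reads from elsewhere was not tested.

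The 2 contractile genes with a site were both placed on the body wall side. unc-27 encodes a troponin I, the inhibitory subunit of the thin filament switch. Its site (chrX:8789073-8789388) had a joint signal of 91.1, with replicate values of 39.7 and 43.7, and an IDR of 0.00482. It was the only one of the 5 with the higher value in the replicate listed second. The summit lay 225 bp upstream of the start and 57 bp from the start of the non-coding RNA gene ZK721.6, inside an exon of that gene on the same strand. As at peb-1, signal at either gene cannot be told apart here.

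unc-15 encodes paramyosin, the core protein of invertebrate thick filaments. Its site (chrI:7383101-7383416) had a joint signal of 82.5, with replicate values of 47.0 and 36.3, and an IDR of 0.00379. The summit lay 62 bp upstream of the nearer of its starts, between genes, and the sequence around it held 3 GAGA repeats on both strands together.

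Across the 5 sites, the replicate listed first ranged from 39.7 to 59.1 and the one listed second from 27.9 to 43.7. Over all candidates the medians were 15.6 and 12.3, and the first was the higher at 63.2%, so a higher first value is the usual case. Few of these peaks passed in a single replicate. In the thresholded list of replicate 1 alone none of the 38 genes had a peak, where 1.46% of all genes did, and in that of replicate 2 alone 1 did, where 1.43% of all genes did. At an IDR of 0.001 none of the 38 remained, with 1.01% of all genes. The optimal list, the second series-wide list, held 4 members (unc-15, tbx-2, peb-1 and eya-1) against 3.10% of all genes, and lacked tbx-38 and unc-27. The comparison of peak lists gives these counts beside all genes.

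**Figure D2:**
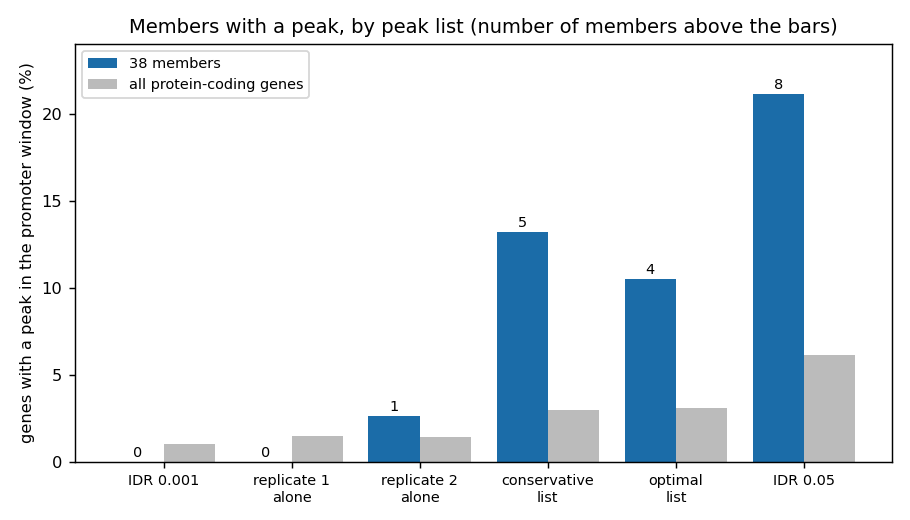
Share of genes (%) with a peak in the promoter window, by peak list, for the 38 members (blue, with their number above the bar) and for all 19973 protein-coding genes (grey). The members stand at 0 to 1 genes in the lists at an IDR of 0.001 and of single replicates, and at 4 to 8 in the optimal, conservative and IDR 0.05 lists.

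**Figure D3:**
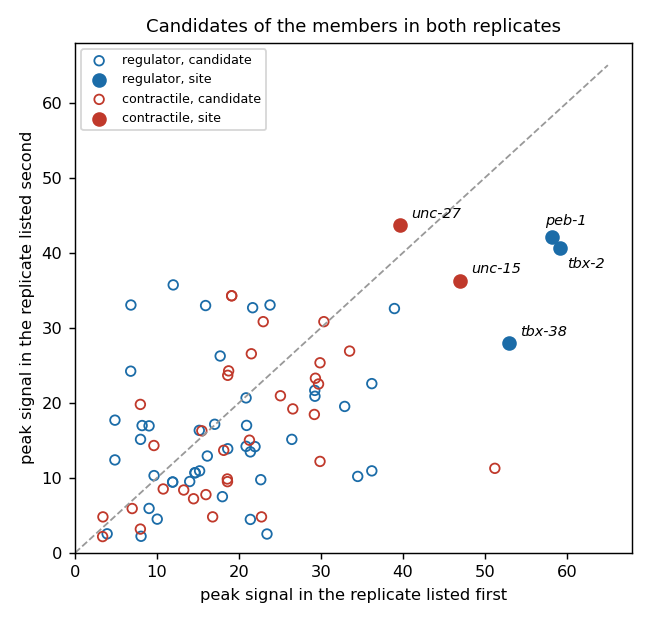
Peak signal in the replicate listed first (x axis) and second (y axis) for the 82 candidates in the members' windows, coloured by role, with the 5 sites filled and named and a dashed line at equal values. Of the candidates, 55 lie below the line, and the 5 sites stand at the upper right of the cloud, with the outlying contractile candidate of mlc-2 at 51.2 and 11.3.

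By role, 3 of 19 regulators (15.8%) and 2 of 18 contractile genes (11.1%) had a site. By tissue, 2 of 22 body wall genes (9.09%) and 3 of 16 pharynx genes (18.8%) did. With tbx-37, tbx-38 and ceh-51 counted on the other side, the shares were 13.0% and 13.3%. With role and tissue crossed, the sites fell on 3 of 10 pharynx regulators and 2 of 13 body wall contractile genes, and on 0 of 9 body wall regulators and 0 of 5 pharynx contractile genes. Over all protein-coding genes 2.99% had a site, so a count of 0 in classes this small is not unusual. With so few genes in each class these counts are a description of 5 sites, and the difference between classes was not tested.

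Every regulator had at least 1 candidate in its window (19 of 19), and 13 of the 18 contractile genes did, where 69.4% of all genes did. The genes without any were the pharyngeal myosin heavy chain genes myo-1 and myo-5, the pharyngeal troponin C gene tnc-2, the body wall myosin heavy chain gene myo-3, the troponin T gene tnt-2, and pha-1, which encodes an antidote to the toxin SUP-35 and whose loss leaves the pharynx undifferentiated. Of the 5 pharynx contractile genes, 2 therefore had a candidate: the myosin gene myo-2 at 32.7 (IDR 0.563) and the troponin T gene tnt-4 at 35.8 (IDR 0.499). The myo-2 summit lay 21 bp from the start of the non-coding RNA gene T18D3.13, and signal at either gene cannot be told apart. The 23 genes with a single 1201 bp window include 5 of the 6 without a candidate. Among the 49 further muscle and pharynx genes described below the order of the roles was reversed. There 9 of 14 regulators (64.3%) and 34 of 35 muscle protein genes (97.1%) had a candidate.

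By signal, the best candidate of a regulator had a median of 46.7 (range 14.8 to 111) and that of a contractile gene 35.8 (range 0 to 91.1, with 0 for no candidate), where the median over all protein-coding genes was 24.9. Placed among all genes, the median regulator stood at percentile 83.1 and the median contractile gene at percentile 68.3. Regulators more often have several starts, and set against genes of like window length the medians were 65.2 and 70.3, in the opposite order. With the most upstream start alone they were 63.4 and 71.9. The order of the 2 roles thus turned in these settings. Regulators stayed higher with windows from 500 bp upstream (81.75 against 77.69) and from 2000 bp upstream (80.67 against 77.27). The part played by the number of starts was not tested, and the order also differed by tissue. On the body wall side the median signal was 46.7 for regulators and 53.0 for contractile genes, and on the pharynx side it was 49.8 and 0. Over both roles, body wall genes had a median of 48.7 and pharynx genes 32.2, at percentiles 85.2 and 62.3, and at 73.4 and 59.0 among genes of like window length. Among regulators alone the tissues stood in the opposite order, at 65.2 for the body wall side and 72.5 for the pharynx among genes of like window length. The pharynx contractile genes, 3 of 5 without a candidate, are the class that stood lowest.

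**Figure D4:**
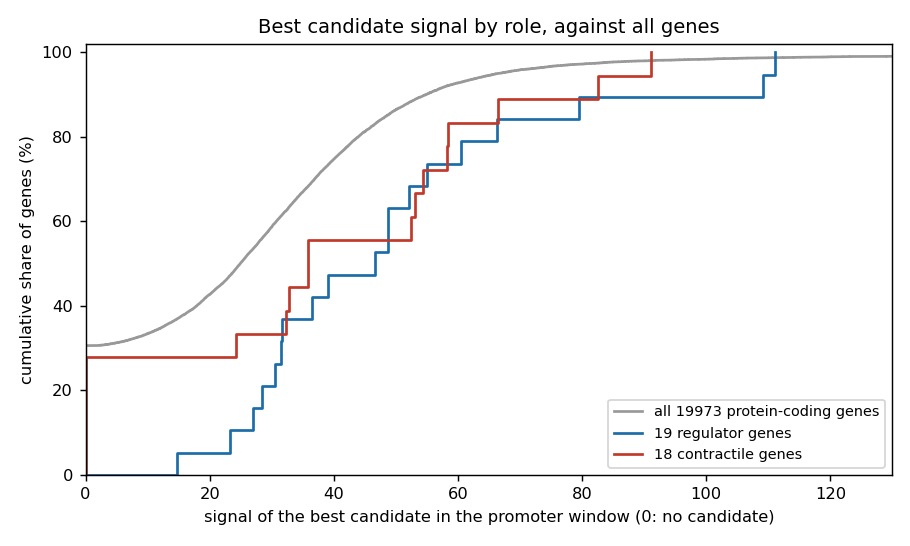
Cumulative share of genes (%) by the joint signal of the best candidate in the promoter window, with genes that have none at 0, for the 19 regulators (blue), the 18 contractile genes (red) and all 19973 protein-coding genes (grey). The regulator curve starts at 14.8, the contractile curve holds 5 of 18 genes at 0, and the 2 curves cross several times to its right.

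Next to the threshold stood eya-1, which encodes an Eyes absent co-activator that works with the Six-family factor CEH-34 in pharynx and mesoderm. Its best candidate had a signal of 66.2, with replicate values of 39.0 and 32.6, and an IDR of 0.0113, just outside the conservative list, while tbx-38 at 0.00991 was just inside. The eya-1 candidate lay 602 bp upstream of the nearest of 4 annotated starts. It is in the optimal list, and the gene had 6 candidates in a window of 2852 bp.

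At an IDR of 0.05 the members with a candidate numbered 8 of 38, against 6.12% of all genes. Besides the 5 sites and eya-1 these were a pair of troponin genes of the body wall. tni-1, for a troponin I, had a signal of 58.4, with replicate values of 33.5 and 26.9, at an IDR of 0.0404 and with its summit 66 bp downstream of the start. mup-2, for a troponin T, had 58.3, with replicate values of 30.4 and 30.8, at an IDR of 0.0429 and 162 bp upstream. Of the other troponin genes in the set, the troponin I gene tni-3 reached 32.3 at an IDR of 0.394, tnt-4 reached 35.8, and tnt-2 and tnc-2 had no candidate.

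The remaining genes described by signal differed in how well the replicates matched. mlc-2, for a myosin regulatory light chain, had the highest joint signal of the members without a site (66.4), but replicate values of 51.2 and 11.3, at an IDR of 0.550. Its summit lay 2 bp from the start of the non-coding RNA gene C36E6.11. mlc-1, its neighbour on X with the same function, had 54.4, with replicate values of 29.3 and 23.3, at an IDR of 0.0955. pha-4 had 60.5, with 23.8 and 33.0, at an IDR of 0.128, and held 6 candidates in a window of 3603 bp. mls-1, a T-box gene that sets the fate of uterine muscle, had 55.0, with 29.2 and 21.7, at an IDR of 0.115, and was the highest of the body wall side regulators.

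The factors that set body wall muscle fate had no site, where 2.99% of all protein-coding genes had one. By best signal among all genes, pal-1 stood at percentile 83.1, hlh-1 at 69.4, unc-120 at 59.6 and hnd-1 at 85.2. The pal-1 candidate reached 46.7, with replicate values of 29.3 and 20.9, at an IDR of 0.127. The hlh-1 candidate reached 36.5, with 6.78 and 24.2, at an IDR of 0.580. At unc-120 the value was 30.5 (16.1 and 12.9, IDR 0.431), and at hnd-1 it was 48.7 (11.97 and 35.7, IDR 0.567). For hlh-1 and hnd-1 the second replicate value was the higher, against the usual order. The T-box paralogues tbx-8 and tbx-9, which act together in body wall muscle and hypodermis, stood at 48.7 (IDR 0.534) and 52.1 (IDR 0.127). hlh-8, the Twist homologue of the M lineage, had 31.7 (IDR 0.297), and ceh-51, an NK-2 family gene of the MS lineage, had 14.8 (IDR 0.763), the lowest of any member with a candidate.

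The large sarcomere genes with many starts had several candidates each and no site, where 6.62% of all genes with windows over 2402 bp had one. unc-89, which encodes obscurin, had 6 in 4762 bp, the highest at 53.0 (IDR 0.0735). lev-11, which encodes tropomyosin, had 7 in 3849 bp, the highest at 52.4 (IDR 0.291), and 2 of the 7 were paired with the same peak of each replicate. unc-22, which encodes the giant kinase twitchin, had 3 in 4931 bp and reached 24.2 (IDR 0.763), with that summit 18 bp from the start of the non-coding RNA gene ZK617.12. unc-54, the major body wall myosin heavy chain gene, had 1 candidate at 35.9 (IDR 0.296). The remaining pharynx regulators ceh-22, ceh-27, pax-1 (a Pax gene) and pha-2 (a homeobox gene) had signals from 23.3 to 39.1 and IDRs from 0.346 to 0.763.

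In all, the windows of the 38 genes held 82 candidates, 1.18 per kb of window, where the windows of all protein-coding genes held 1.03 per kb. Their median signal was 30.4, against 23.7 over all candidates, and 42.7% had an IDR above 0.5, against 57.7% of all. All candidates include those outside promoter windows, so the sets compared are unlike in position. Candidates in the windows of other genes were not summarised apart. The ranks of the 2 replicates over the 82 correlated at Spearman rho 0.480 (0.283 over all 101059 candidates). This is a description across peaks of the same pair of libraries, and peaks that share a replicate peak are not independent. Of the 32 best candidates, 23 lay upstream of the nearest start, 21 within 200 bp of it and 3 over 500 bp from it.

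**Figure D5:**
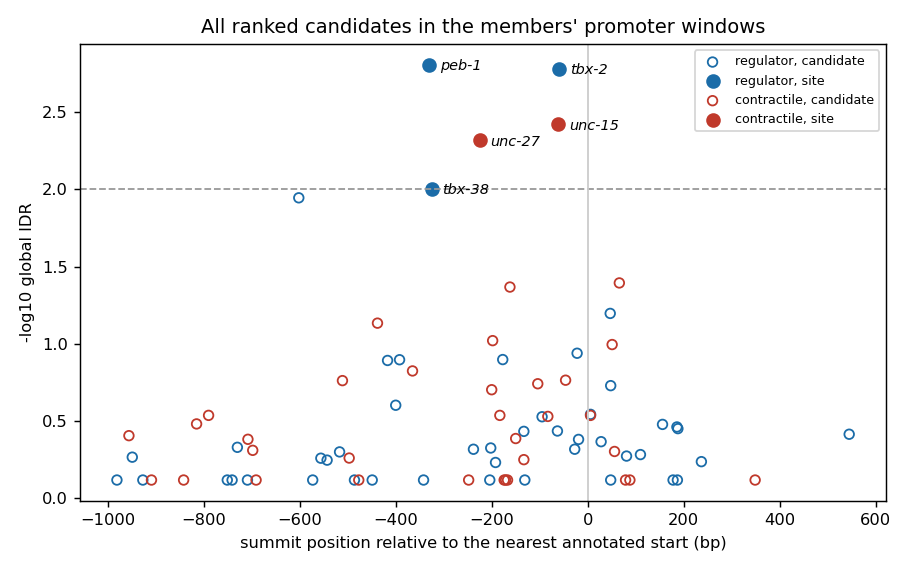
Summit position relative to the nearest annotated start (bp, negative upstream) and -log10 of the global IDR for the 82 candidates in the members' windows, coloured by role, with the 5 sites filled and named; the dashed line marks an IDR of 0.01. The sites lie from 60 to 330 bp upstream, with tbx-38 on the line and the eya-1 candidate at -602 bp just under it.

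Non-coding RNA starts lay within 100 bp of the summit at 2 of the 5 sites (unc-27 and peb-1) and at 8 of the 82 candidates (9.76%), where 32.5% of all sites and 3.22% of all candidates had one. The shares over all sites and all candidates include peaks outside promoter windows, so they are not from like sets. All 8 candidates of the members were at genes of the general ncRNA class, and none was at a tRNA, snoRNA, snRNA or rRNA gene. The closest such small RNA gene to any of the 5 sites was a tRNA gene 6396 bp from the tbx-38 summit. Without sites that have a non-coding start within 100 bp, 3 members kept a site (tbx-38, unc-15 and tbx-2), against 2.35% of all genes.

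Beyond the promoter windows, 2 further sites lay within 5 kb of the ends of a member. One, 5022 bp from the start of mlc-2 (chrX:17451406-17451721, signal 82.9), falls in the promoter window of C36E6.2. The other, 5336 bp from the start of pax-1 (chrV:8230112-8230427, signal 107), lies 8 bp from the start of a tRNA gene. No other site lay inside any of the 38 genes outside its windows.

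Promoter words were counted in the 1201 bp around the most upstream start of each gene, on both strands. CAGGTG occurred in 8 of the 38 windows (21.1%) and in 27.2% of all promoter windows. Of the members with a site, unc-15 and peb-1 held it there. For unc-15 it was not within 50 bp of the summit, and for peb-1 the counted window does not reach the site, 5793 bp downstream. GGGCGG occurred in 18 of 38 (47.4%), 9 regulators and 9 contractile genes, against 19.2% of all windows, and GCGCAC in 13 (34.2%), 5 regulators and 8 contractile genes, against 16.4%. GAGAGA was in 14 of the 18 contractile windows and 7 of the 19 regulator windows, with 50.9% over all genes. Median GC content was 37.9% in the member windows and 34.97% in all windows. The forkhead words TGTTTAC and TATTTGC, which PHA-4 can bind, occurred in 9 and 8 of the 38 windows, against 15.1% and 22.4% of all. E-boxes of any form were in all 38 windows and in 98.6% of all windows.

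Around the summits, CAGGTG was found within 50 bp in 0 of the 5 sites, 1 of the 32 best candidates and 3.47% of all sites. GGGCGG was found in 2 of the 5 sites, 3 of the 32 best candidates and 9.91% of all sites. GAGAGA was found in 2 of the 5 sites, 5 of the 32 best candidates and 13.7% of all sites. Among candidates with an IDR above 0.5 the shares were 2.94% for CAGGTG, 2.33% for GGGCGG and 5.64% for GAGAGA. A match describes the sequence and does not show which protein is bound there. The median GC content was 46.5% around the best candidates of the members, 51.5% around all sites and 38.6% around candidates with an IDR above 0.5.

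Other genes of the same tissues were counted in the same way. Of 50 further muscle and pharynx genes, 49 were found in the annotation, and 1 had a site (2.04%, beside the 2.99% of all genes): ceh-34, the Six-family partner of eya-1 in pharynx development. Its site had a signal of 89.1, with replicate values of 58.5 and 31.3, at an IDR of 0.00438, with the summit 83 bp downstream of the start. It was 1 of 14 further regulators, and none of 35 further muscle protein genes had a site. At an IDR of 0.05 the further genes with a candidate numbered 3 of 49 (6.12%), the same share as over all genes. Besides ceh-34 they were deb-1, for vinculin (signal 79.8, IDR 0.0212), and dys-1, for dystrophin (best candidate 67.8, lowest IDR 0.0478). The median best signal over the 49 was 34.3, where it was 37.9 over the 38 members and 24.9 over all genes. By role the median was 20.6 for the further regulators and 37.6 for the further muscle protein genes, at median percentiles of 43.5 and 71.2. This order of the roles is the opposite of that among the members, so it depends on which genes are listed.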

How the data were processed

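The authors deposited lists of peaks on the ce11 assembly, as the labels and file notes state: a ranked and a thresholded list for each of 2 replicates, and series-wide lists. The signal per peak is the value the authors' peak caller gave, deposited without a stated scale. The deposited ranked lists also give the −log10 of the global IDR. Neither aligner nor peak caller is given in the sources used here; read depth is unknown. The ranked list of both replicates gives each replicate's signal without saying which replicate it is, so those values keep the list's order and no replicate number.

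Summits were placed on Ensembl release 115 gene starts of WBcel235, the same assembly, without the mitochondrial genome, using Python 3.11.15, pandas 2.3.3 and Biopython 1.88. The window search was checked on simulated peaks. Members with a site were described in full, then those with a candidate at an IDR of 0.05, then those of highest signal, and the rest more briefly. The members and lists were chosen with earlier results of these data known. No test between conditions is possible with 1 group. Other peak lists, thresholds, windows and gene groupings were tried as alternatives.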

Additional observations from a re-analysis of the deposited data

How the results depend on the processing

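Of 53 recounted values, 30 stayed within 1.5 times the reported count. The 5 members with a site numbered 8 at an IDR of 0.05 (contractile 4, body wall 4), 0 at an IDR of 0.001 (0 in every class), and 3 without sites near non-coding starts (contractile 1, body wall 1). The optimal list held 1 contractile and 1 body wall gene. Leaving out 1 replicate gave from 0 to 1 members, 0 to 1 regulators, 0 to 1 pharynx genes, and 0 contractile and 0 body wall genes. The single-replicate lists are shorter, so these counts fall by construction in part. Windows from 500 or 2000 bp upstream, overlap by 1 bp and the moved gene groupings left the counts within 1.5 times, as did the most upstream start.

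The median percentile of all members was 78.2 and 79.3 with windows from 500 and 2000 bp upstream, 66.6 with the most upstream start and 68.9 with the optimal ranked list. For contractile genes it was 77.7, 77.3 and 71.9 in the first 3 of these. For body wall genes it was 89.2, 82.6 and 84.2, and for pharynx genes 73.2, 55.2 and 54.6. For regulators it was 63.4 with the most upstream start. With the signal of 1 replicate it ranged from 69.9 to 72.4 for all members, 72.2 to 76.4 for regulators, 64.8 to 68.2 for contractile genes, 83.3 to 83.8 for body wall and 60.4 to 67.5 for pharynx genes. The cause was not tested. No paired analysis was possible because the samples form 1 group and no result comes from a test. Read depth is unknown, so no limit on weak peaks can be given.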
